A study of Homo sapiens with 10 samples.

Results

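The nucleosome positions called in human induced pluripotent stem cells (hiPSCs) were examined at 4 long non-coding RNA (lncRNA) loci, MALAT1, NEAT1, ESRG and LINC-ROR, each taken as the annotated gene with 10 kb on each side. A position belonged to a locus when its midpoint lay inside it, and this gave 726 of the 12921589 positions in the list: 150 at MALAT1, 229 at NEAT1, 135 at ESRG and 212 at LINC-ROR. The genes were chosen by name, for abundance or for use as stem cell transcripts. The rule used no score or density, but earlier results of these data were known when the choice was made.

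The cells were of the hiPSC line PB010.5, in which a FUCCI cassette that reports the cell cycle is inserted at EEF2. Their chromatin was digested for 5 min with 10, 6, 3, 1 or 0.5 U of micrococcal nuclease (MNase), an enzyme that cuts the DNA between nucleosomes, with 1 library per concentration. Every library was sequenced with 150-bp paired reads and, in a run marked Low Depth, with 50-bp paired reads, which makes 10 samples in all. All values come from 1 list called on pooled libraries, so no comparison between concentrations, no replicate error and no p-value can be given. Which runs were pooled is not given in the sources used here, and neither is the scaling of the score that each 140-bp position carries. The depth behind a score is therefore unknown, and a higher score is read only as a higher called signal. No untreated or other control sample enters the list, so GC-matched stretches of the same chromosome served as the background.

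MALAT1 and NEAT1 are neighbouring, single-exon genes whose transcripts stay in the nucleus. MALAT1 RNA gathers at nuclear speckles, where splicing factors are stored, and a tRNA-like small RNA is cut from its 3′ end. NEAT1 RNA is the scaffold of paraspeckles: a short and a long transcript share 1 start, and only the long one builds the body. ESRG and LINC-ROR are spliced lncRNAs of pluripotent cells that begin in copies of the endogenous retrovirus HERVH, a repeat family active in early human embryos. The list holds no RNA, so transcription of the 4 genes in these cells was not measured here.

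In the GENCODE annotation of GRCh38, MALAT1 (ENSG00000251562.11) lies on the plus strand at chr11:65497640-65508073 and has 1 canonical exon. NEAT1 (ENSG00000245532.11) lies on the same strand at chr11:65422774-65445540, with its canonical start at base 65422798. ESRG (ENSG00000265992.1) lies on the minus strand at chr3:54632122-54639857, has 4 exons and sits within the calcium channel subunit gene CACNA2D3, which runs in the opposite direction. LINC-ROR (ENSG00000258609.3) lies on the minus strand at chr18:57054558-57072119 and also has 4 canonical exons. Distances below are counted from the canonical start in the direction of transcription.

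Sequences are shown for the MALAT1 and NEAT1 starts and for the strongest position in the LINC-ROR body, on which results below turn. RefSeq gives 2 promoters for MALAT1 in build GRCh38.p14, chr11:65497488-65497787 and chr11:65498795-65499094, both on the plus strand. NEAT1, ESRG and LINC-ROR have no entry in the promoter table used. In the MALAT1 promoters, capitals mark bases inside a called position.
MALAT1 first promoter: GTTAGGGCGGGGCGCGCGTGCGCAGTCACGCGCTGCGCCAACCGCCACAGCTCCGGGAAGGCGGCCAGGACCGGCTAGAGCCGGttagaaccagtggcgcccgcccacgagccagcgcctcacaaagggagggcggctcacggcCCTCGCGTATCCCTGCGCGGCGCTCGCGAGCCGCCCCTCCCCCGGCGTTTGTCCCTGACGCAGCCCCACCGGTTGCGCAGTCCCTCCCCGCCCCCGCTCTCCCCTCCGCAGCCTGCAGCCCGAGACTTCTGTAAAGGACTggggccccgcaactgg
MALAT1 second promoter: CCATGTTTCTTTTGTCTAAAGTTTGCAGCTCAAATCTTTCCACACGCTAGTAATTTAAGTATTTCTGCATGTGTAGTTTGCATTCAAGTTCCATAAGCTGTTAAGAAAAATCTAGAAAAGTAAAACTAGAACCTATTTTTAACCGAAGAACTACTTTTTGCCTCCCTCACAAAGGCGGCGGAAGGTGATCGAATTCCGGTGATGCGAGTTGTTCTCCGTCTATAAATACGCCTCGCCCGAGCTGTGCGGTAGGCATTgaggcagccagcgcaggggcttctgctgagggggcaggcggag
The first promoter was 73.7% G+C with 37 CpG dinucleotides, and 224 of its 300 bases lay inside a called position. The second was 46% G+C with 14 CpG, and called positions covered 257 of its bases. Short motifs were searched on both strands of these promoters and of all 35116 RefSeq promoters. The letters GGGCGG, the GC box, occurred 5 times in the first promoter and not in the second, and 45% of all promoters held at least 1 match. TATAAA occurred once in the second promoter and was held by 11.5% of all promoters. CCAAT (34.6% of promoters) and the octamer ATGCAAAT (1.77%) matched neither. A match is a string of letters and not an occupied site.

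The first stretch of NEAT1 holds 2 overlapping positions with very different scores. It is chr11:65422772-65423011 on the plus strand of hg38, and capitals mark the second position, at +144, which scored 50.6.
NEAT1 first and second positions: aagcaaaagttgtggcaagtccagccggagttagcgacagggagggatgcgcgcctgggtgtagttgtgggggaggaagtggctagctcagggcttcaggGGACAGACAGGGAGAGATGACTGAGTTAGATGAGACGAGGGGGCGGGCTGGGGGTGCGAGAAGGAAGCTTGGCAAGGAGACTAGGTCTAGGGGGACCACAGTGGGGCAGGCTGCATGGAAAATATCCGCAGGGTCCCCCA
The last sequence is the highest-scoring position in the LINC-ROR gene body, chr18:57058562-57058701 on the minus strand, which scored 46.9. It contains 2 CpG, given in capitals.
LINC-ROR highest position in the body: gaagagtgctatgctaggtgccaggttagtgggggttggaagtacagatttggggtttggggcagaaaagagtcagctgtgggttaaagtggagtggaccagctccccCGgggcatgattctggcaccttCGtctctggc

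At the canonical start sites, 3 of the 4 genes had a weak first downstream position and LINC-ROR did not. Each score was ranked among all positions of the same chromosome with the same number of G and C bases around the midpoint, since scores in this list vary with GC content. At MALAT1 the flanking midpoints lay at -138, with a score of 7.40, and at +62, with a score of 12.3. Only 0.907% and 18% of same-GC positions scored lower. Both flanks of the GC-rich canonical MALAT1 start were occupied by positions that were low for their base composition. This depended on the start used: at the second RefSeq start, base 65499045, the first downstream position ranked above 61.5%.

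At NEAT1 the upstream position at -186 scored 24.7, above 54.1% of same-GC positions. The first downstream position, at +44, scored 7.40, above only 0.713%. The next, 100 bp further on, scored 50.6, above 99.4%. A low score and the highest score of the NEAT1 body fell on neighbouring positions whose intervals overlap. The caller placed 2 alternative midpoints there, and a single nucleosome cannot occupy both in 1 DNA molecule.

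At ESRG the flanking midpoints lay at -245, with a score of 9.87, and at +145, with a score of 12.3, above 8.45% and 11.1% of same-GC positions. At LINC-ROR they lay at -113, with a score of 14.8, and at +57, with a score of 24.7, above 24.8% and 71.1%. The first downstream position of LINC-ROR reached 12 bases upstream of the start. Those of MALAT1 and NEAT1 also spanned their starts, and that of ESRG did not.

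**Figure D1:**
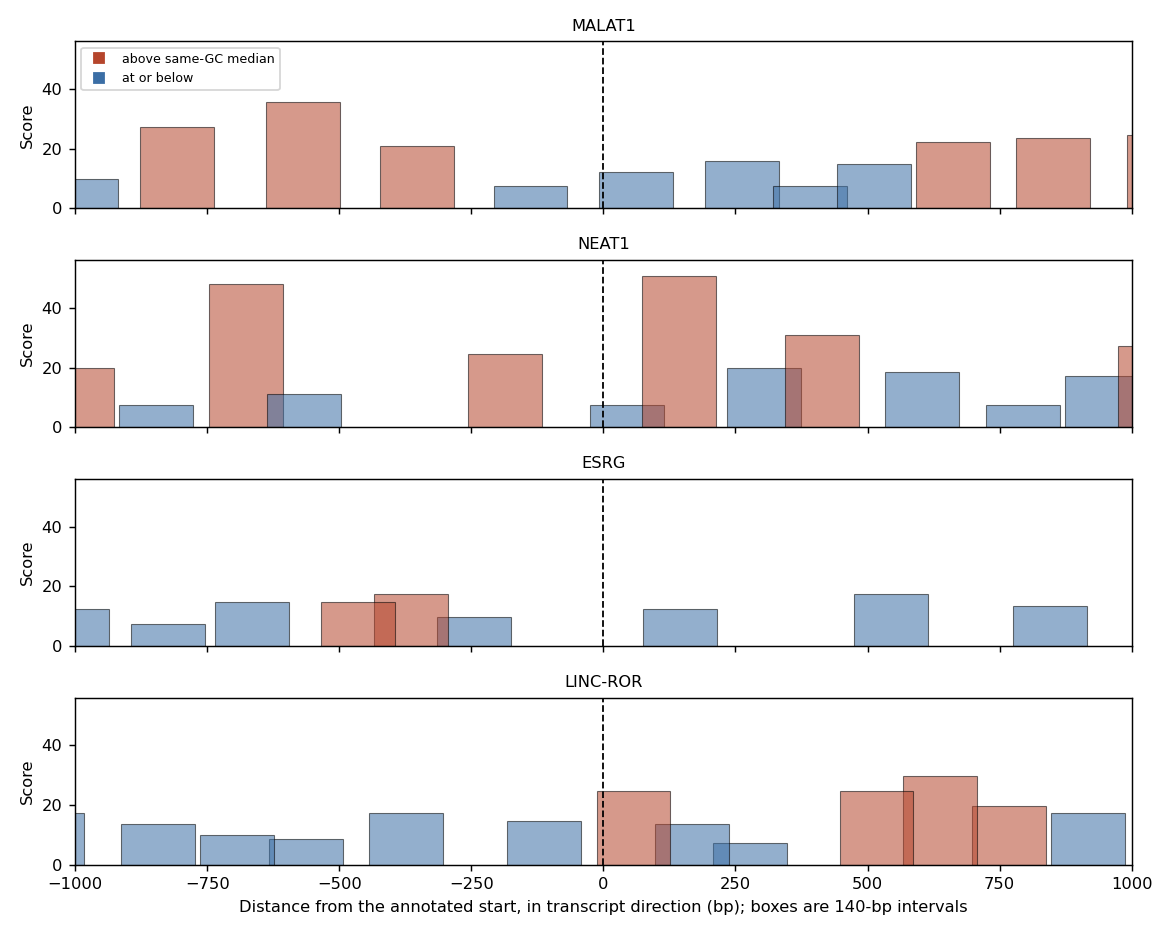
Called positions within 1 kb of the canonical start of MALAT1, NEAT1, ESRG and LINC-ROR, drawn as 140-bp boxes with the deposited score as height, red above and blue at or below the median of same-GC positions of the chromosome. The first box downstream of the start is blue in 3 genes and red in LINC-ROR, and the first NEAT1 box (7.40) overlaps the tallest one (50.6).

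The distance between the midpoints that flank the start was 200 bp at MALAT1, 230 bp at NEAT1, 390 bp at ESRG and 170 bp at LINC-ROR. Over 18647 lncRNA starts its quartiles were 160, 210 and 290 bp. A distance of at least 300 bp occurred at 24.6% of lncRNA starts and at 1 of the 4 members, ESRG. Most midpoints lie on a grid of 10 bp, so single locations are no finer than that, and their actual error is unknown. MALAT1, NEAT1 and LINC-ROR lay between the quartiles, and ESRG was wider than the upper quartile.

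The first downstream position was also compared with gene lists chosen by function, as counts and medians only. Over all lncRNA starts the median rank among same-GC positions was 48.4%, with quartiles of 20.9% and 76%. For the 4 members, at their canonical starts, it was 14.6%. Among 12 genes for proteins of paraspeckles it was 91.1%, with a range from 3.49% at CPSF6 to 99.6% at RBM14. SFPQ and NONO, the core proteins that bind NEAT1, had first positions above 99.2% and 90.3% of same-GC positions.

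Among 8 other genes of abundant non-coding RNAs the median was 87.7%. It ran from 33.5% at SNHG5 to 99.9% at SNHG1, which are hosts of small nucleolar RNAs. Among 5 other stem cell lncRNA genes it was 68%, from 35% at TUNAR to 75.5% at LINC00458, and among 4 lncRNA genes of other tissues it was 64.5%. NEAT1 stood below every gene of the comparison lists, and MALAT1 and ESRG stood below all of them except CPSF6 and, for MALAT1, DAZAP1. The first positions were not matched for distance from the start. They lay at +44 at NEAT1, +62 at MALAT1 and +145 at ESRG, against +97 at NONO and +143 at SFPQ. Of positions close to a start, CPSF6 at +13 ranked at 3.49% and LNCPRESS1 at +24 at 68%. The next NEAT1 position, at +144, overlaps the first and ranked above 99.4%. The comparison lists hold few genes each and were chosen with earlier results of these data known. The differences in rank were not tested.

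**Figure D2:**
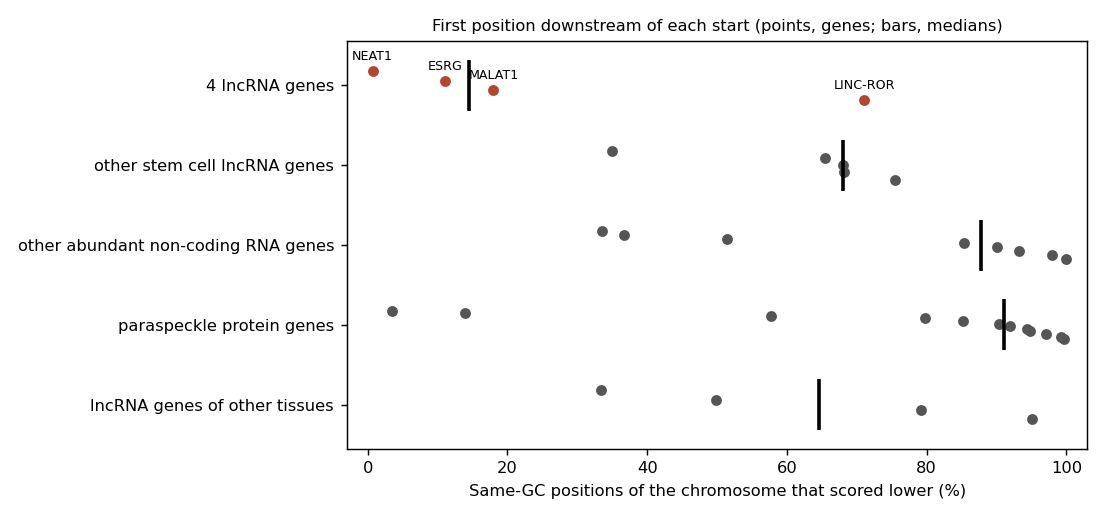
Rank of the first position downstream of the canonical start, as the percentage of same-GC positions of the chromosome that scored lower, for the 4 lncRNA genes and 4 comparison lists (points, genes; bars, medians). NEAT1, ESRG and MALAT1 lie at 0.713%, 11.1% and 18%, and LINC-ROR lies at 71.1%.

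Over the gene bodies, ESRG had the fewest positions per kb and NEAT1 and LINC-ROR had slightly more than their GC-matched windows. Windows had the length of the gene body, lay on the same chromosome and differed by at most 1 point in GC content. The intervals given are exact 95% Poisson intervals of the count and treat positions as independent, which neighbouring nucleosomes are not. They cover counting error only.

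The ESRG body held 31 positions in 7.74 kb, or 4.01 per kb (2.72 to 5.69), where the median of 8704 matched windows was 5.43. This is a log2 ratio of -0.44, and 4.42% of the windows held fewer positions. The MALAT1 body held 48, or 4.60 per kb (3.39 to 6.10), against a matched median of 5.18, a log2 ratio of -0.17, and 12.5% of windows held fewer. The matched medians lay inside the intervals of both genes.

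The NEAT1 body held 125 positions, or 5.49 per kb (4.57 to 6.54), against 5.31 in matched windows, a log2 ratio of 0.05. The LINC-ROR body held 98, or 5.58 per kb (4.53 to 6.80), against 5.35, a log2 ratio of 0.06. Both stem cell genes are HERVH transcripts, yet they stood at opposite ends of this order, and their 2 intervals overlapped.

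The flanks differed slightly less in positions per kb, from 4.80 to 6.00 against 4.01 to 5.58 in the bodies. In the share of matched windows with fewer positions they spread at least as widely. Upstream, the 10 kb before LINC-ROR held 6.00 positions per kb, and 93.7% of matched windows held fewer. The 10 kb before MALAT1 held 5.00 per kb and 6.95% of windows held fewer. The 10 kb past NEAT1 held 4.80 per kb, with 4.58% of windows lower, and this flank contains the widest empty stretch of the 4 loci. The remaining 5 flanks held between 5.1 and 5.6 positions per kb.

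**Figure D3:**
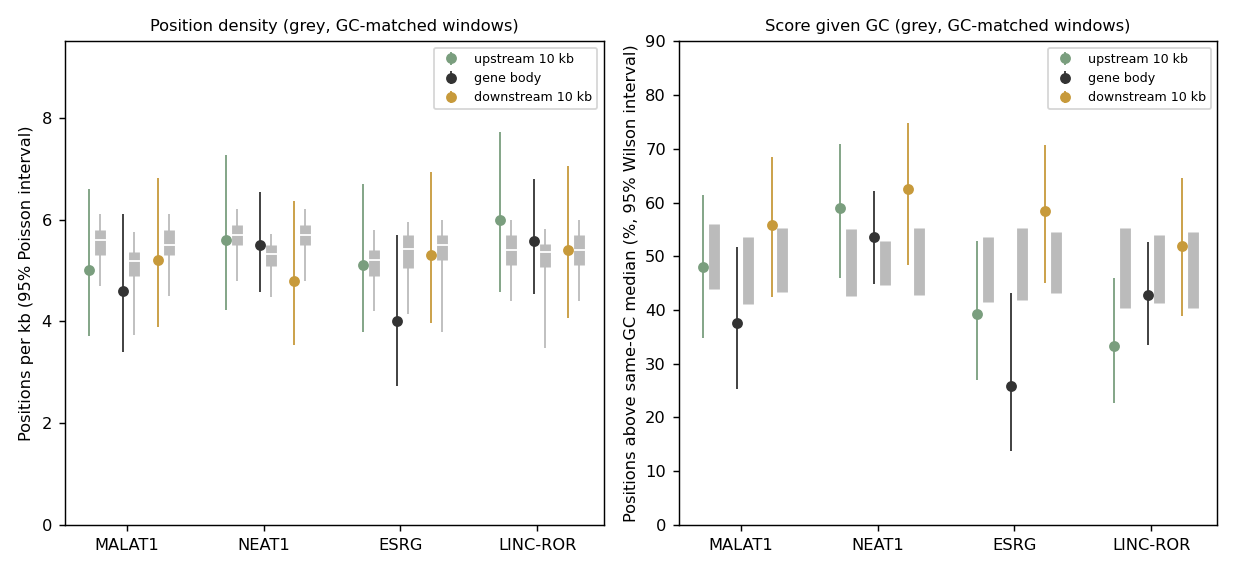
Position density (left, positions per kb with 95% Poisson intervals) and percentage of positions above the same-GC median (right, with 95% Wilson intervals) for the upstream 10 kb, the gene body and the downstream 10 kb of each gene, with GC-matched windows in grey (thick bars, quartiles; thin lines at left, the middle 90%). The ESRG body is the lowest point in both panels, at 4.01 per kb and 25.8%.

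The scores in the gene bodies followed a similar order. The measure was the share of positions that scored above the median of their GC class. Scores come in steps of 1.23 and ties at the median were not counted, so the share over whole chromosomes was 45.5% on chromosome 11, 45% on chromosome 3 and 44.8% on chromosome 18. In the NEAT1 body 67 of 125 positions (53.6%, 95% Wilson interval 44.9 to 62.1) were above it. In the LINC-ROR body 42 of 98 (42.9%, 33.5 to 52.7) were, and in the MALAT1 body 18 of 48 (37.5%, 25.2 to 51.6). In the ESRG body 8 of 31 were (25.8%, 13.7 to 43.2). The interval of ESRG ended below the share of its chromosome, and those of the other 3 genes included theirs. For ESRG and NEAT1 this depended on how GC content was matched. With GC content taken over about 1 kb, ESRG had 9 of 31 (29%, 16.1 to 46.6), which includes the 45.6% of its chromosome, and NEAT1 had 73 of 125 (58.4%, 49.6 to 66.7), which lies above the 45.9% of its own. Against positions of all autosomes, of which 45.4% were above, NEAT1 had 71 of 125 (56.8%, 48.0 to 65.2). In GC-matched windows the median share was 48.8% for ESRG, 47.5% for MALAT1, 48.9% for NEAT1 and 48.2% for LINC-ROR. The share was lower than in the body in 3.01%, 15.4%, 78.7% and 29.9% of these windows, in the same order.

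Median scores in the bodies were 13.6 at MALAT1, 17.3 at NEAT1, 13.6 at ESRG and 15.4 at LINC-ROR. The medians of matched windows were 14.8, 16.04, 17.3 and 17.3. At ESRG 3.30% of the windows had a lower median score, at MALAT1 11.7%, at LINC-ROR 20.7% and at NEAT1 60.9%. NEAT1 was the only body of the 4 with a median above that of its windows.

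Past the 3′ ends the shares above the same-GC median were higher than in the bodies: 55.8% at MALAT1, 62.5% at NEAT1, 58.5% at ESRG and 51.9% at LINC-ROR. At ESRG the body (25.8%) and the downstream flank (58.5%, 45.1 to 70.7) had intervals that did not overlap. Upstream the shares were 48% at MALAT1, 58.9% at NEAT1, 39.2% at ESRG and 33.3% at LINC-ROR. Neighbouring positions of 1 locus are not replicates, and none of these differences was tested.

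At the 2 abundant lncRNA loci with their flanks, high scores within their GC class made up a larger share than on chromosomes 3, 11 and 18 together. Over all 726 positions a score above at least 90% of same-GC positions was found for 71 (9.78%), where 8.64% of all positions on chromosomes 3, 11 and 18 reached it. A score below at least 90% was found for 55 (7.58%), against 6.48%. By locus the high positions were 20 of 150 at MALAT1 (13.3%, 8.80 to 19.7) and 30 of 229 at NEAT1 (13.1%, 9.33 to 18.1). Both intervals lay above the 8.64%, at MALAT1 only just, and they treat neighbouring positions as independent. High positions were 8 of 135 at ESRG (5.93%, 3.03 to 11.3) and 13 of 212 at LINC-ROR (6.13%, 3.62 to 10.2), with intervals that included the 8.64%. No test of the difference between the loci was made. At MALAT1 9 of the 20 high positions lay upstream and 5 downstream. In the bodies alone high positions were 6 of 48 at MALAT1 (12.5%, 5.86 to 24.7) and 15 of 125 at NEAT1 (12%, 7.41 to 18.9). At LINC-ROR they were 8 of 98 (8.16%, 4.19 to 15.3), and all these intervals included the background. None of the 31 positions in the ESRG body was high, where a count of 0 allows a share of up to 11% (upper limit of the Wilson interval). Low positions made up 8 of 48 in the MALAT1 body (16.7%, 8.70 to 29.6), 12 of 98 in the LINC-ROR body (12.2%, 7.15 to 20.2), 4 of 31 in the ESRG body (12.9%, 5.13 to 28.9) and 3 of 125 in the NEAT1 body (2.4%, 0.820 to 6.82). The intervals of MALAT1 and LINC-ROR lay above the 6.48%, and those of ESRG and NEAT1 included it. The 8.64% and the 6.48% cover all GC classes of chromosomes 3, 11 and 18. Because scores come in steps, the share that can be called high or low differs between GC classes. These intervals therefore do not show an excess over a GC-matched share, which was not computed.

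**Figure D4:**
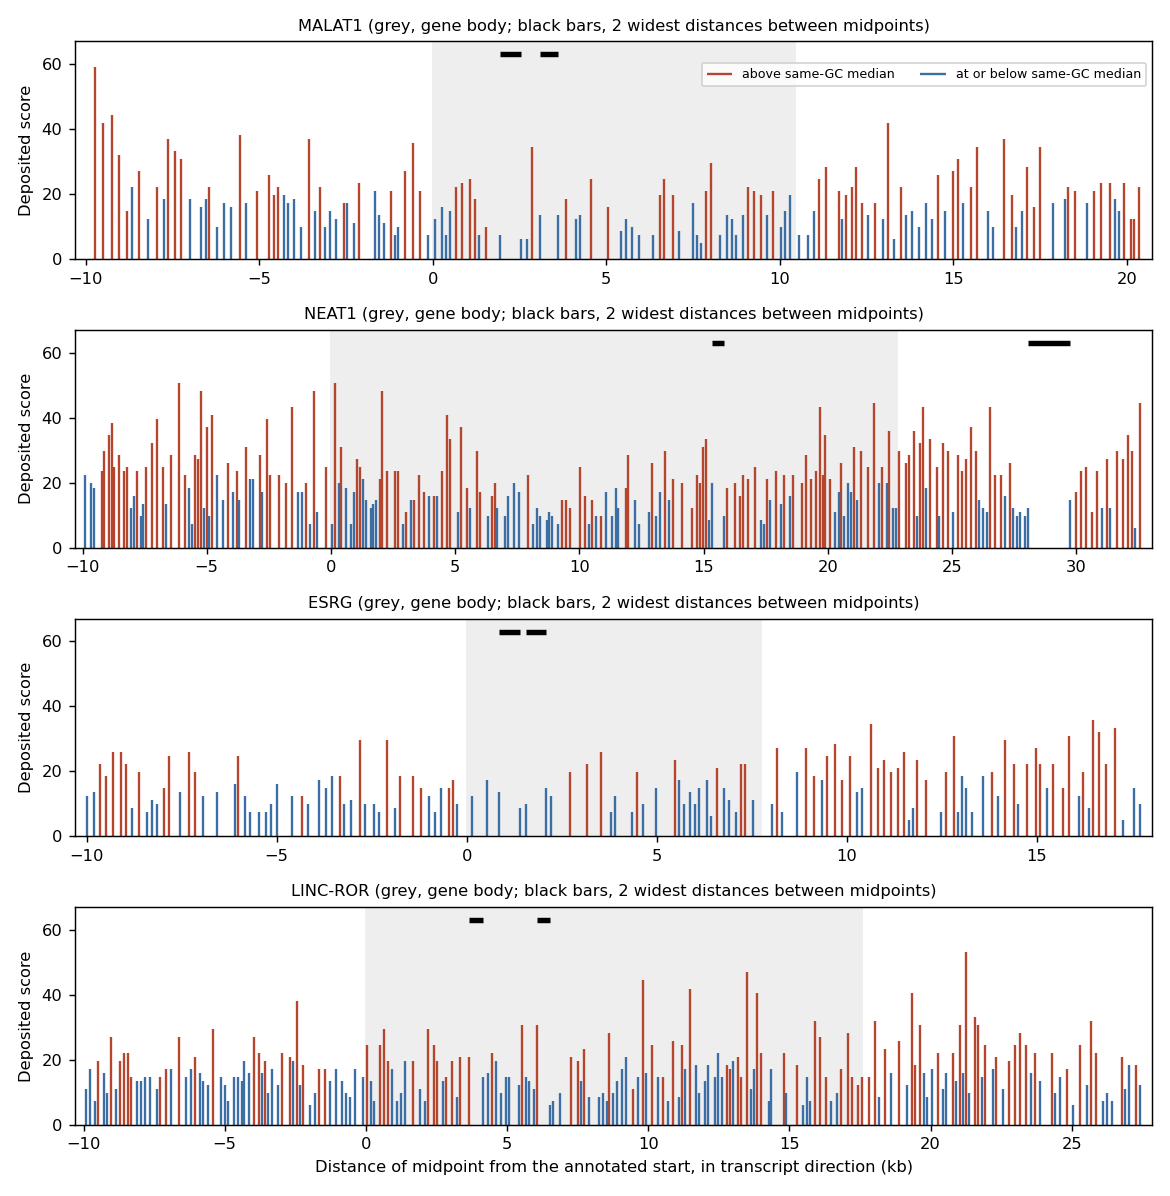
Deposited score of every called position across the 4 loci against the distance of its midpoint from the canonical start (kb), red above and blue at or below the median of same-GC positions, with gene bodies in grey and the 2 widest distances between neighbouring midpoints as black bars. The tallest line is the 59.2 upstream of MALAT1, and the longest bar is the 1700 bp past the end of NEAT1.

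Across the MALAT1 locus the highest scores lay in the flanks. Scores of 59.2, 44.4 and 41.9 were found at -9718, -9248 and -9498 bp from the start, within the lncRNA genes LINC02736 and ENSG00000286756, above 99.9%, 98.2% and 97.2% of same-GC positions. The same score of 41.9 was reached past the 3′ end, at +13122 and in no other annotated gene, above 99.6%. Within the gene itself the highest score was 34.5, at +2872. It stood between the 2 widest distances of the locus, 580 bp from +1952 to +2532 and 540 bp from +3082 to +3622. Both stretches were A+T-rich, at 31.7% and 39.6% G+C, and neither contained a 100-base word found elsewhere. In windows matched to the MALAT1 body the widest distance had a median of 500 bp, and in 68.7% it was under 580 bp.

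MNase cuts A+T-rich DNA readily, and whether these stretches lacked nucleosomes or lost them to digestion cannot be told apart in a pooled list. The RefSeq annotation starts MALAT1 at bases 65497738 and 65499045. Around the second of these the flanking midpoints were 190 bp apart and scored 7.40 and 9.87, above 1.52% and 61.5% of same-GC positions. From there to the gene end the density was 4.32 per kb, against 4.87 in matched windows.

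At the 3′ end of MALAT1, the annotated small RNA ENSG00000274072 occupies 57 bases and ends at chr11:65506173. The midpoints next to its end lay 51 bp before it and 99 bp after it and scored 13.6 and 12.3, so a called position of 140 bp covered the small RNA gene. Both ranked at 39% of their GC class. The canonical end of MALAT1 lay between a midpoint 151 bp before it, with a score of 19.7, and one 119 bp after it, with a score of 7.40, above 0.970% of same-GC positions. The antisense gene TALAM1 covers 8121 bp of the MALAT1 body on the other strand, and positions there belong to both genes.

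Across the NEAT1 locus the highest score, 50.6, occurred at both -6106 and +144, above 98.5% and 99.4% of same-GC positions. A score of 48.1 followed at 3 places, -5226, -676 and +2064, above 97.9%, 97.7% and 99.8%. High scores thus stood on both sides of the NEAT1 start, 3 of these 5 before it and 2 in the gene body. In the part of the gene shared by the short and the long transcript (3.68 kb) there were 24 positions, or 6.51 per kb (4.17 to 9.69), where matched windows had a median of 5.43 and 94.6% of them had fewer. In the part transcribed only in the long form there were 101, or 5.29 per kb (4.31 to 6.43), against 5.24. In the 2 parts 12 of 24 (50%, 95% Wilson interval 31.4 to 68.6) and 55 of 101 (54.5%, 44.8 to 63.8) scored above the same-GC median. Both intervals included the 45.5% of chromosome 11.

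The end of the short transcript lay midway between midpoints 210 bp apart that scored 22.2 and 17.3, above 89.7% and 84.5% of same-GC positions. The end of the long transcript lay between midpoints 150 bp apart with scores of 12.3 each, above 8.73% and 8.30%. The 2 ends of NEAT1 differed in the rank of the positions beside them. At the long end the annotation places a further small RNA of 58 bases, ENSG00000275948, and the first midpoint past the end, at 12 bp, lies within it.

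The widest distance at NEAT1 was 1700 bp, from 28064 to 29764 bp past the start and so outside the gene. It was 66.5% G+C, and 16.2% of its 100-base words had an exact copy elsewhere. Copied 50-base words made up 60.2% from 28 to 29 kb past the start and 51.9% from 29 to 30 kb. Over the whole 10 kb past NEAT1 they made up 18.4%, and their part in this wide distance was not tested. The next was 490 bp, within the long transcript, at 36.7% G+C and with no copied word. Windows matched to the NEAT1 body had a median widest distance of 550 bp, and 30.4% stayed under 490 bp. Over all 4 loci, 25 of 722 neighbouring midpoints (3.46%) were at least 400 bp apart, where 6.53% were on the 3 chromosomes. By locus they were 10 of 134 at ESRG (7.46%, 4.10 to 13.2) and 7 of 149 at MALAT1 (4.70%, 2.29 to 9.38). Both Wilson intervals included the 6.53%. At NEAT1 they were 4 of 228 (1.75%, 0.684 to 4.42) and at LINC-ROR 4 of 211 (1.90%, 0.740 to 4.77), with intervals below it. The 6.53% covers all midpoints of the 3 chromosomes and is not matched for GC content. Against GC-matched windows the widest distances of these 2 bodies were not unusual. The widest distance was narrower in 30.4% of windows for NEAT1 and in 43.7% for LINC-ROR.

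The ESRG body was sparse near its start. In the first kb it held 3 positions, in the second 2 and in the third 3, and none of those in the first 2 kb scored above the same-GC median. Between 6 and 7 kb it held 7. Its 2 widest distances, 550 bp from +845 to +1395 and 520 bp from +1555 to +2075, lay in the sparse part. Of their 100-base words, 27.5% and 25.6% had exact copies elsewhere. Windows matched to the ESRG body had a median widest distance of 410 bp, and 83.4% stayed under 550 bp. The 3 highest scores of the locus, 35.8, 34.5 and 33.3, all lay past the 3′ end, between +10635 and +17055.

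Repeated sequence moved with the sparse part of ESRG, and its part in the low density was not tested. Reads from identical copies can be lost or placed at the wrong copy. Exact copies existed for 43.6% of the 50-base words and 15.5% of the 100-base words of its body, against 1.02% and 0.0767% at MALAT1 and 1.22% and 0% at NEAT1. The ESRG flanks held at most 4.84% copied 50-base words. At bases whose central 50-base word had a copy, ESRG had 12 positions in 3.36 kb, or 3.57 per kb (1.84 to 6.23). At the other bases it had 19 in 4.37 kb, or 4.34 per kb (2.62 to 6.78). Of those 19 positions, 5 (26.3%, 11.8 to 48.8) scored above the same-GC median, and of the 12 at copied words 3 did (25%, 8.89 to 53.2). Both intervals are wide and include the share of chromosome 3.

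LINC-ROR had copied words too, 21.2% of the 50-base and 5.05% of the 100-base words of its body. It held 16 positions in 3.70 kb of bases with a copied word, or 4.32 per kb (2.47 to 7.02), and 82 in 13.9 kb of the rest, or 5.92 per kb (4.71 to 7.34). In both HERVH genes the density was lower where words were copied, by less than the counting intervals. The shares above the same-GC median were 43.8% and 42.7%.

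The highest score at LINC-ROR was 53.1, at +21247 and past the 3′ end, followed by 46.9 at +13487 and 44.4 at +9807 in the gene body. All 3 ranked above at least 98.5% of same-GC positions. The widest distances were 490 bp, from +3647 to +4137, with no copied 100-base word, and 470 bp, from +6047 to +6517, where 40.9% of the words were copied. Windows matched to the LINC-ROR body had a median widest distance of 515 bp, and 43.7% stayed under 490 bp.

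In the exons of the canonical LINC-ROR transcript 9 of 14 positions (64.3%) scored above the same-GC median, and in its introns 33 of 84 (39.3%) did. The share on chromosome 18 was 44.8%. Most of the exonic positions, and most of those above the median, lay in the last exon, so the count describes that exon more than exons in general. A position was counted as exonic when at least 70 of its 140 bases were. In ESRG the counts were 2 of 10 (20%) in exons and 6 of 21 (28.6%) in introns. The order of exons and introns was opposite in the 2 genes, on few exonic positions. Around the 3′ end of LINC-ROR, within 1 kb on each side, 8 of 10 positions were above the same-GC median (95% Wilson interval 49.0 to 94.3). Part of these are the last-exon positions already counted, so this is not a separate observation. The same window held 8 of 13 at NEAT1, 4 of 11 at MALAT1 and 3 of 10 at ESRG. Around the starts the counts were 4 of 12 at LINC-ROR, 5 of 12 at NEAT1, 5 of 11 at MALAT1 and 2 of 8 at ESRG.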

How the data were processed

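MNase-seq of hiPSCs gave 10 samples, 5 MNase concentrations at each of 2 read lengths. The authors trimmed reads (Trimmomatic 0.40, per the submitters' processing notes), and processed them with the nucMACC workflow on GRCh38, with blacklisted regions left out. The deposited score is a signal per 140-bp position, never negative, on a scale not given in the sources used here. The list was used unfiltered. Depth is unknown, so no sampling error of a score is given.

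Genes came from GENCODE release 44 and promoters from RefSeq. Density was set against all windows of equal length on the chromosome, in steps of 1000 bp, within 1 point of GC and without unsequenced bases. Scores were ranked among positions of the chromosome with equal GC count around the midpoint, over the length of a nucleosome core. Words of 50 and 100 bases were searched for exact copies on both strands of the chromosomes. Named by rule were the members, their neighbours, the midpoints beside each start and end, the 3 highest scores and the 2 widest distances per locus, and up to 4 genes of each list. Positions at +2872 of MALAT1, SFPQ and NONO were named after their values were seen. The members and lists were chosen with earlier results of these data known. With a single pooled list, no test was made. A pair of start sequences and their comparison are not reported here. Calculations used Python 3.11.15, NumPy 2.4.6, pandas 2.3.3, SciPy 1.17.1 and Matplotlib 3.10.9, and were tested on simulated positions.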

Additional observations from a re-analysis of the deposited data

How the results depend on the processing

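The density, score share and start distance of each gene were recomputed under 44 alternatives, of which 12 were added after seeing the data (the RefSeq gene body, and positions without a copied word). In 38 the value stayed within its counting interval, or for a start distance within 10 bp, which is the grid step and not an error. No density changed sign. Without GC matching the share of body positions above the median was 62.4% at NEAT1, 48.4% at ESRG and 64.3% at LINC-ROR, and with GC content over about 1 kb the interval of the ESRG share (16.1 to 46.6) included that of its chromosome. When positions under the chromosome's median score were dropped, the start distance was 615 bp at MALAT1, 330 bp at NEAT1 and 910 bp at ESRG, since the low positions beside those starts drop out. The ESRG density ratio ranged over its alternatives from -0.82 to -0.40 on the log2 scale. Matching windows on repeat content was not run, because the reference marks no repeats. No paired analysis was possible because libraries were pooled in 1 list that carries no replicate. Depth limits every score here: the reads behind a position are unknown.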
